A study of Mus musculus with 4 samples.

Results

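Fatty acid oxidation and peroxisome genes were examined in peritoneal macrophages of Mac-Gata6 KO mice, in which the gene of the transcription factor GATA6 is targeted, and of control mice. The list held 35 gene symbols of mitochondrial and peroxisomal beta-oxidation, of peroxisome assembly and of their regulator Ppara. Each gene was read from its probe with the highest mean among probes detected on at least 2 arrays. Of the 35 genes, 33 were measured, out of 11628 genes tested. Ppara, the nuclear receptor that drives these genes in liver, and Ehhadh, the L-type bifunctional enzyme of the peroxisome, each had 1 probe that was detected on 0 of the 4 arrays, so nothing is said of their change. Carnitine palmitoyltransferase Cpt1a and the peroxisomal enoyl-CoA reductase Pecr passed the filter only through the control arrays.

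The samples were sorted peritoneal macrophages of C57BL/6 mice 8 to 16 weeks old, all untreated, with 1 Illumina bead array per sample. The Mac-Gata6 KO group (2 arrays) carried LysM-cre and Gata6-floxed alleles. The control group (2 arrays) is labelled only as control, and the labels do not say whether it carried Cre or the floxed alleles. LysM-cre deletes in macrophages and in other myeloid cells such as neutrophils. Nothing in the labels says that replicates were separate animals, so the spread that p-values rest on may be technical.

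Beta-oxidation shortens fatty acids by removing acetyl-CoA in a repeating cycle of dehydrogenation, hydration, a second dehydrogenation and cleavage. Mitochondria take long chains in through the carnitine shuttle and pass the electrons to the respiratory chain, while peroxisomes begin the breakdown of very long, branched and dicarboxylic chains and feed their electrons to oxygen. In macrophages fatty acid oxidation is known as a fuel route of resident and alternatively activated cells. Peroxisomes are built by the PEX proteins, called peroxins, which insert membrane proteins, import enzymes from the cytosol and divide the organelle.

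Gata6 had a log2 normalized intensity of 13.07 and 12.83 on the Mac-Gata6 KO arrays and 13.77 and 13.66 on the control arrays (log2 change -0.76 ± 0.15, adjusted p = 0.0270). Which part of the gene the probe covers is not given, and the call was lost whichever single array was omitted. A second kept Gata6 probe, designed to a clone record, was kept only through the control arrays and was at least 1.74-fold lower (adjusted p = 0.0160 over all kept probes). Probes detected per array numbered 16096 to 16484. Of the macrophage markers 9 of 9 with a probe were detected on every array, with a summed linear intensity of 122222 and 130776 in Mac-Gata6 KO and 148064 and 145921 in control. Fcgr1, Adgre1 and Icam2 were lower in Mac-Gata6 KO. Csf1r lay higher without passing (log2 change 0.46 ± 0.14, limma adjusted p = 0.0971), and Itgam lower without passing (-0.44 ± 0.20, adjusted p = 0.208). Mertk, Lyz2, Cd14 and Timd4 overlapped between groups. Markers of other cells were present: B cell genes were higher in Mac-Gata6 KO for 5 of 6 measured, with a summed linear intensity of 1922 and 2154 in Mac-Gata6 KO and 931 and 964 in control, though Ms4a1 and Pax5 were not detected. Erythroid genes were higher for 3 of 3 measured, with sums of 804 and 796 in Mac-Gata6 KO and 140.5 and 137.5 in control, but Hbb-bs and Hba-a1 were kept only through the Mac-Gata6 KO arrays and were not well above background in control. Of 6 listed mast cell genes 4 were measured (summed intensity 351 and 392 in Mac-Gata6 KO, 225 and 252 in control) and Cpa3 rose. The T and NK cell list had 2 measured genes of 8 (378 and 438 in Mac-Gata6 KO, 148 and 144 in control), of which Cd2 rose. In the neutrophil list S100a8 was the 1 measured gene, and it fell (609 and 846 in Mac-Gata6 KO, 1605 and 1420 in control). None of the 4 eosinophil, 7 mesothelial or fibroblast and 6 dendritic cell genes was measured. What part these cells play in the values below was not tested, and fewer cells of a type cannot be told apart from less RNA per cell.

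None of the 33 measured members had a fitted change beyond 2-fold between Mac-Gata6 KO and control macrophages. For Cpt1a and Pecr, not detected on the Mac-Gata6 KO arrays, the fitted value does not limit the fall. The median absolute log2 change of the members was 0.18, beside 0.23 over all genes, and 57.6% of the members were below 0, beside 51.0% of all genes. At a Benjamini-Hochberg adjusted p under 0.05 in limma, fitted over all genes, 1 of the 33 measured genes passed, the peroxisomal transporter Abcd3, which was lower, and 0 were higher. Of all genes tested 12.3% passed, 6.14% lower and 6.11% higher. At an unadjusted p under 0.05, 6 members were lower and 1 higher, against 14.6% and 13.3% of all genes. The median log2 change of the members was -0.07, beside -0.01 over all genes, and the members ranged from -0.74 for Cpt1a to 0.47 for Hsd17b4. The arrays of the groups did not overlap for 18 members, 13 lower and 5 higher, beside 56.8% of all genes (29.2% lower and 27.6% higher). Among the 30 members detected on all 4 arrays the count was again 1, beside 10.8% of the genes so detected. These shares describe the list and were not tested.

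The 95% interval of the log2 change, not adjusted for the number of genes, lay wholly within a 2-fold change either way for 32 of the 33 measured members, beside 81.6% of all genes tested. The exception was Cpt1a, with an interval from -1.19 to -0.30 on the log2 scale. Pecr is among the 32, but it was not well above background in Mac-Gata6 KO, so its interval does not limit its fall. Of the 30 members detected on all 4 arrays, all 30 had such an interval, beside 85.8% of the genes so detected. Some of these lay near the lowest detected signal (5.69 to 5.76 per array), such as Decr1 at 6.08 and 6.14 in Mac-Gata6 KO. Background can shrink a fitted change there, so such an interval limits the change less well. The median absolute difference between the arrays of 1 group, over the members, was 0.17 in Mac-Gata6 KO and 0.09 in control on the log2 scale. Between groups it was 0.15 to 0.32, so at least 1 pair of arrays from different groups differed by less than the Mac-Gata6 KO pair. Over all genes the same measure was 0.18 in Mac-Gata6 KO, 0.16 in control and 0.26 to 0.30 between groups. A p that misses the threshold does not show that a gene was equal. With 2 arrays per group the adjusted threshold also missed genes whose unadjusted interval left out no change. Decr1, with an interval from -0.82 to -0.17, was 1 of them.

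**Figure D1:**
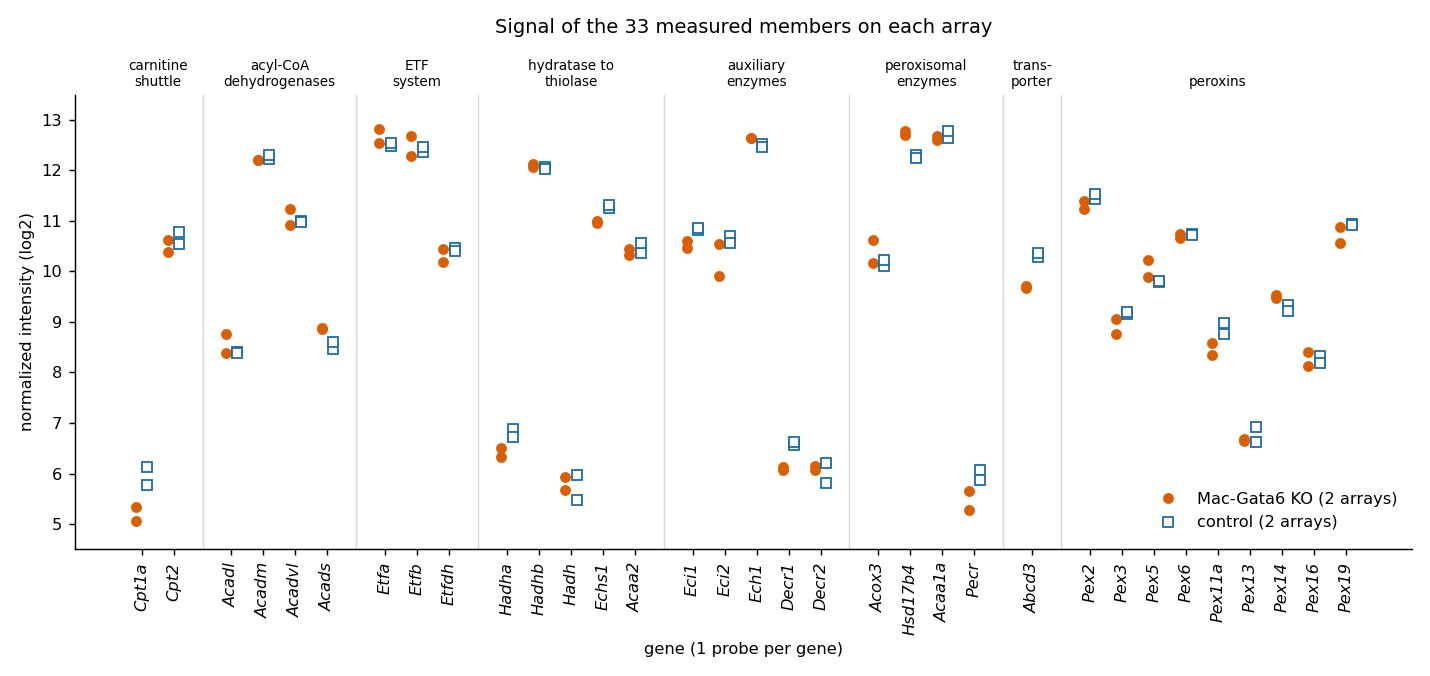
Normalized intensity (log2, vertical axis) of the 33 measured genes, grouped by role, on each array. Filled circles are the 2 Mac-Gata6 KO arrays and open squares the 2 control arrays; the Abcd3 circles (9.70 and 9.67) lie below its squares (10.29 and 10.37), while 15 of the 33 genes overlap between groups. Heights of different genes are not comparable, since probes differ in brightness.

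**Figure D2:**
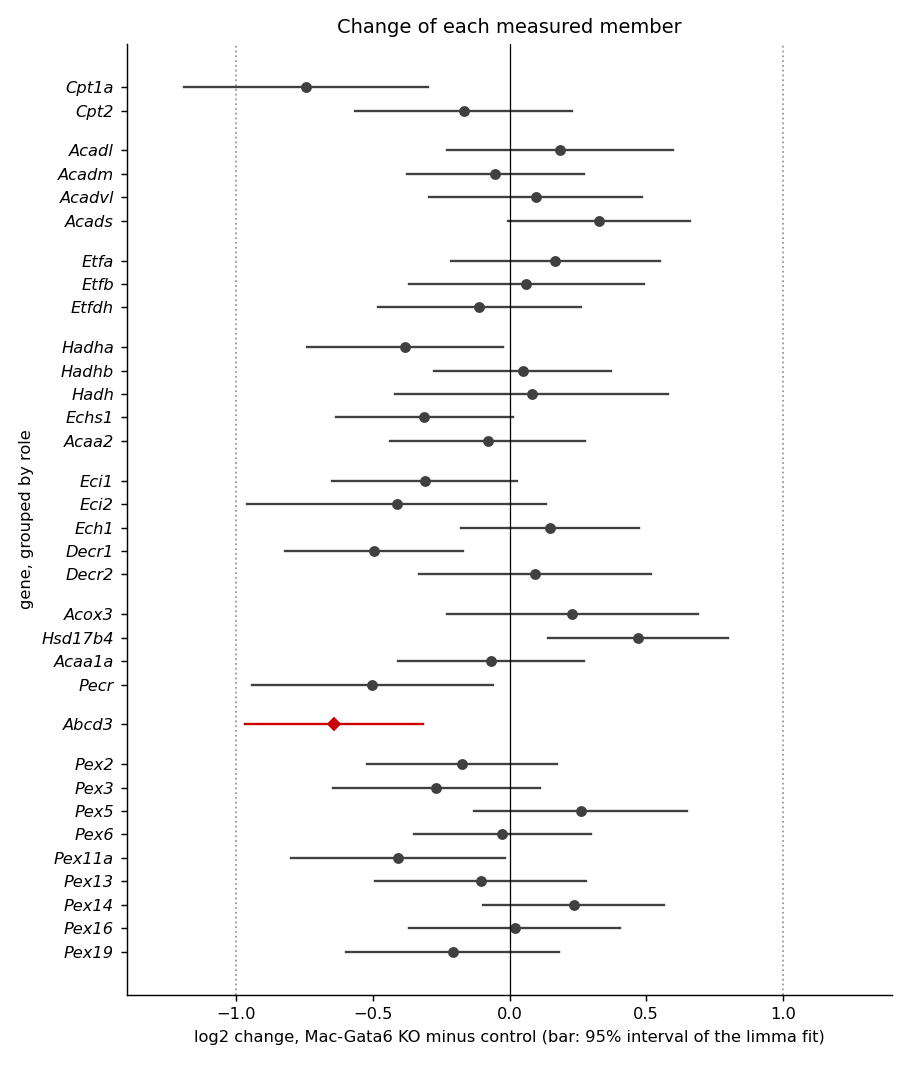
Log2 change of each measured gene, Mac-Gata6 KO minus control (horizontal axis), with its 95% interval from the limma fit as a bar and dotted lines at a 2-fold change. The red diamond is Abcd3, the 1 gene past the adjusted threshold; the bar of Cpt1a is the 1 that crosses a dotted line. Cpt1a and Pecr, not detected in Mac-Gata6 KO, are drawn at their fitted value, and their bars do not limit their fall.

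Promoter sequence is shown for the members for which at least 1 probe was called lower in Mac-Gata6 KO, as the stretch of 250 bases before the annotated start. The sequences are from RefSeq, build GRCm38.p6, 5′ to 3′ on the strand of the gene, all minus here. Abcd3 has 2 annotated starts in the table and the more upstream one is shown (chr3:121815303-121815552). Pex11a lies at chr7:79743132-79743381 and Echs1 at chr7:140116422-140116671. Capitals mark a nuclear receptor half-site (AGGTCA) or a GATA word (GATA with A or T before it and A or G after it), searched on both strands.
Abcd3: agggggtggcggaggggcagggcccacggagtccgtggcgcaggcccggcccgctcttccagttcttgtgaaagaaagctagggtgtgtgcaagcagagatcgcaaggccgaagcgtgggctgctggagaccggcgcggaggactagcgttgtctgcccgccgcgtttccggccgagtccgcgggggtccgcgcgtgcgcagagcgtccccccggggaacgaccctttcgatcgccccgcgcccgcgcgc
Pex11a: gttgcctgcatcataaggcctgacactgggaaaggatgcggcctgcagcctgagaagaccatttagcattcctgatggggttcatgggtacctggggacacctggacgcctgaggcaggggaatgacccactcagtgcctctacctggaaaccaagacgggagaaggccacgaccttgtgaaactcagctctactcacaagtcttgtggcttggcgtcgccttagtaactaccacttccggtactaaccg
Echs1: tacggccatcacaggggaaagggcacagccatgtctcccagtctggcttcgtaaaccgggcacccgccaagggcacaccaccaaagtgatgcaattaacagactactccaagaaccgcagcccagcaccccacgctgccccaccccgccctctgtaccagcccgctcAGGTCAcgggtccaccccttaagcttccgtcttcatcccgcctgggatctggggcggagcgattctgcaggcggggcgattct
In these windows the half-site was found once, in Echs1, and no GATA word was found. Over the 32 windows of the 28 measured members in the table, 5 (15.6%) held a GATA word, beside 26.5% of all 32851 windows of the same length. The half-site stood in 4 member windows (12.5%), beside 14.02% of all windows. The half-site repeated in the same direction after a spacer of 1 base of any kind is a form of the element that PPAR receptors with RXR are known to bind. Searched as this exact word, it stood in 0 member windows and in 11 (0.0335%) of all. A word this rare could hardly be met in 32 windows, so nothing is read from the 0. No half-site shared bases with a GATA word in the sequences shown. A match describes letters only, and its absence says only that these letters are not in this window.

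Entry of long chains into mitochondria depends on Cpt1a, which makes acylcarnitines at the outer membrane, and on Cpt2, which turns them back into acyl-CoA inside. Cpt1a gave 5.07 and 5.34 on the Mac-Gata6 KO arrays, where it was not well above background, and 6.13 and 5.78 on the control arrays (log2 normalized intensity). The arrays of the groups did not overlap. Cpt1a did not pass (adjusted p = 0.0511). The bound from its measured means was at least 1.17-fold lower, for a gene kept only through the control arrays, where the bound sets the control mean against, on each Mac-Gata6 KO array, the lowest signal of any detected probe or the Cpt1a signal if that was higher. With median scaling it passed (adjusted p = 0.0303), and without background correction the fitted log2 change was -0.30 (adjusted p = 0.0934). The probe was designed to a clone record, and a second Cpt1a probe, designed to the reference transcript, was detected on 0 arrays. For Cpt2 the groups overlapped, at a log2 change of -0.17 ± 0.16 (adjusted p = 0.572).

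The acyl-CoA dehydrogenases carry out the first step of the cycle, each for a range of chain lengths. None of the 4 passed. The short-chain enzyme Acads had the smallest p of these genes, with 8.86 and 8.87 in Mac-Gata6 KO and 8.47 and 8.61 in control (log2 normalized intensity). Its Mac-Gata6 KO arrays lay above both control arrays, with a log2 change of 0.33 ± 0.14 (adjusted p = 0.186). The other log2 changes were -0.05 for the medium-chain enzyme Acadm, 0.10 for the very-long-chain enzyme Acadvl and 0.18 for the long-chain enzyme Acadl. A second kept Acadl probe pointed the other way (-0.35 ± 0.15).

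Electrons from these enzymes pass to the electron transfer flavoprotein, made of Etfa and Etfb, and from there through Etfdh to ubiquinone. All 3 genes gave overlapping groups. Etfa had 12.82 and 12.53 in Mac-Gata6 KO and 12.48 and 12.54 in control (log2 change 0.17 ± 0.16, adjusted p = 0.552). Log2 changes were 0.06 ± 0.18 for Etfb and -0.11 ± 0.15 for Etfdh. The interval of Etfdh, from -0.48 to 0.26, leaves out a change of 2-fold.

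The later steps are run on long chains by the trifunctional protein of Hadha and Hadhb, and on shorter chains by the hydratase Echs1, the hydroxyacyl dehydrogenase Hadh and the thiolase Acaa2. None of the 5 passed with the probe that represents the gene. Hadha had 6.51 and 6.34 in Mac-Gata6 KO and 6.88 and 6.73 in control (log2 change -0.38 ± 0.15, adjusted p = 0.157), without overlap. Its only probe was designed to a clone record. Hadhb, its partner subunit, had a log2 change of 0.05 ± 0.13. Echs1 had 10.95 and 10.99 in Mac-Gata6 KO and 11.26 and 11.31 in control (log2 change -0.31 ± 0.13, adjusted p = 0.192), again without overlap. Acaa2 was read by 4 kept probes, with log2 changes from -0.23 to -0.08, and none passed. Hadh, detected on 1 array of each group, had a log2 change of 0.08 ± 0.20.

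Unsaturated fatty acids need auxiliary enzymes that move or reduce double bonds. The isomerases Eci1 and Eci2, the dienoyl-CoA isomerase Ech1 and the dienoyl-CoA reductases Decr1, of mitochondria, and Decr2, of peroxisomes, were all measured and none of the 5 passed. Decr1 gave 6.08 and 6.14 in Mac-Gata6 KO and 6.57 and 6.63 in control (log2 normalized intensity). Both Mac-Gata6 KO arrays lay below both control arrays, with a log2 change of -0.49 ± 0.13 (adjusted p = 0.0670). It passed with the stricter detection filter (adjusted p = 0.0391), and its log2 change was -0.21 without background correction. Eci1 and Eci2 had log2 changes of -0.31 ± 0.14 and -0.41 ± 0.22, and the Mac-Gata6 KO arrays of Eci2 differed among themselves, at 9.91 and 10.53. Ech1, with 12.64 on both Mac-Gata6 KO arrays and 12.53 and 12.46 in control, had a log2 change of 0.15 ± 0.13 and Decr2 of 0.09 ± 0.17.

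Among the peroxisomal enzymes none of the 4 measured passed. Hsd17b4, the D-type bifunctional enzyme that hydrates and dehydrogenates very long and branched chains, gave 12.70 and 12.78 in Mac-Gata6 KO and 12.30 and 12.24 in control. Both Mac-Gata6 KO arrays were higher than both control arrays, with a log2 change of 0.47 ± 0.13, or 1.38-fold (adjusted p = 0.0792). Its log2 change was 0.46 without background correction (adjusted p = 0.00921) and 0.46 with the authors' values (adjusted p = 0.00915), where it passed, and it also passed with an offset of 50, with a trend and robust variance and with the stricter detection filter. Pecr was not well above background in Mac-Gata6 KO, at 5.28 and 5.66 against 6.08 and 5.87 in control, and did not pass (adjusted p = 0.136). The bound from its measured means was at least 1.19-fold lower, for a gene kept only through the control arrays. Acox3, an oxidase of branched chains, had a log2 change of 0.23 ± 0.19 and the thiolase Acaa1a of -0.07 ± 0.14. Hsd17b4 and Acox3 were above 0 and Pecr and Acaa1a below, but none of the 4 passed, so no direction is read from these signs.

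Abcd3, also called PMP70, imports acyl-CoA through the peroxisomal membrane and was the 1 member past the threshold. It gave 9.70 and 9.67 on the Mac-Gata6 KO arrays and 10.29 and 10.37 on the control arrays (log2 normalized intensity). The groups did not overlap, and the gap between them was wider than the spread within either. The log2 change was -0.64 ± 0.13, which leaves 64.1% of the control signal (limma adjusted p = 0.0304). The call rested on this probe and on all 4 arrays. Without 1 array the adjusted p was 0.102 to 0.151, with median scaling 0.0649, with the replicate number as a block 0.0657 and with the mean of the 3 kept probes 0.249 (log2 change -0.29). The other 2 kept Abcd3 probes, designed to the same reference transcript, had log2 changes of -0.14 ± 0.18 and -0.10 ± 0.21 and overlapping groups.

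None of the 9 peroxins passed with the probe that represents the gene. Pex11a, which promotes growth and division of peroxisomes, had the smallest p, with 8.34 and 8.58 in Mac-Gata6 KO and 8.77 and 8.97 in control (log2 change -0.41 ± 0.16, adjusted p = 0.164). Membrane protein insertion by Pex3, Pex16 and Pex19 showed log2 changes of -0.27 ± 0.16, 0.02 ± 0.16 and -0.21 ± 0.16. The import receptor Pex5 had 0.26 ± 0.16 and its docking partners Pex13 and Pex14 had -0.11 ± 0.16 and 0.23 ± 0.14. Of the export machinery, the ubiquitin ligase subunit Pex2 had -0.17 ± 0.14 and the ATPase Pex6 had -0.03 ± 0.13. Adjusted p of these 8 was at least 0.329.

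Several members were read by more than 1 probe, though probes of 1 gene on the same arrays are not independent. The members had 60 kept probes, and 17 members had at least 2. With each probe fitted by itself, a setting chosen after seeing the data, 4 of the 60 passed an adjusted p over all kept probes, 3 lower and 1 higher, beside 10.7% of all 16713 kept probes. All 3 Pex11a probes had Mac-Gata6 KO arrays below both control arrays, with log2 changes of -0.41 ± 0.17, -0.55 ± 0.18 and -0.66 ± 0.15. The last passed (adjusted p = 0.0444). Both Echs1 probes were also without overlap, and the second, designed to a clone record, fell by 0.78 ± 0.16 on the log2 scale (adjusted p = 0.0313). Pex11a and Echs1 were the 2 of those 17 members with every kept probe lower without overlap, and no such member was higher. Over all genes 56.8% were without overlap by the probe that represents them, 29.2% lower and 27.6% higher. The share with every probe without overlap was not computed, so nothing is read from the count of 2. A second Acox3 probe, not well above background in control, was at least 1.46-fold higher (adjusted p = 0.0195), and it was kept only through the Mac-Gata6 KO arrays, so it had to differ. The first Acox3 probe, detected on all 4 arrays, did not pass. The kept probes of Acadl, Cpt2, Pex6, Pex13 and Pex19 differed in sign. For Pex6 log2 changes of the 4 probes were -0.03, -0.10, 0.56 and -0.68.

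**Figure D3:**
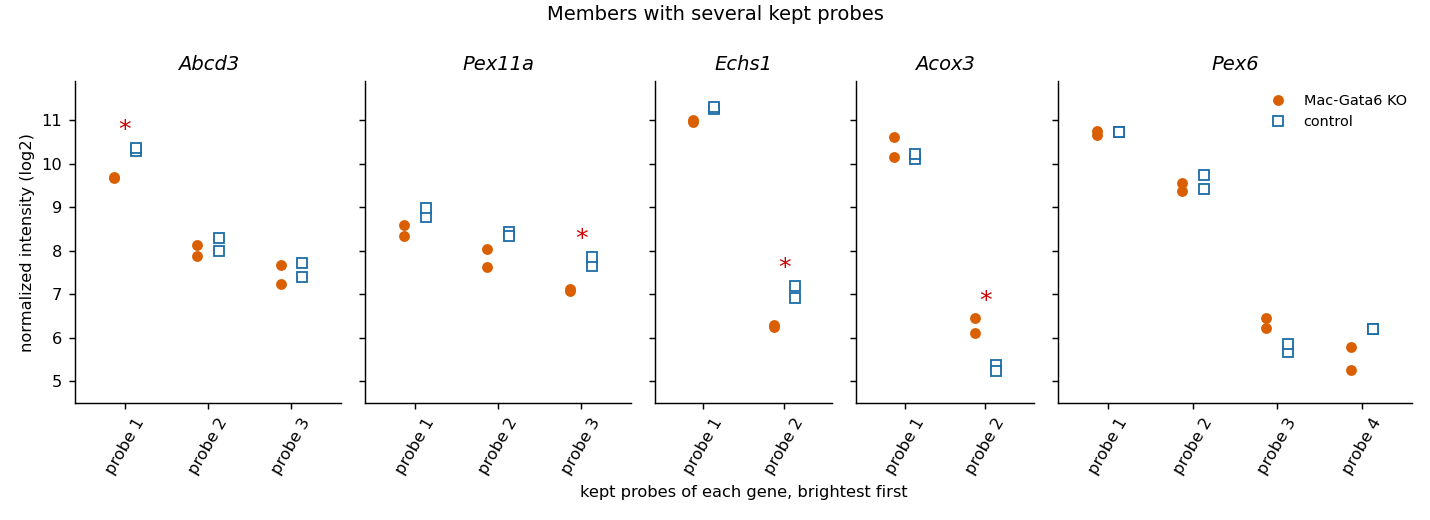
Normalized intensity (log2, vertical axis) of every kept probe of 5 members, one column per probe, with filled circles for the 2 Mac-Gata6 KO arrays and open squares for the 2 control arrays. An asterisk marks a probe with an adjusted p under 0.05 over all kept probes. In Pex11a and Echs1 all probes lie lower in Mac-Gata6 KO without overlap. The probes of Abcd3 share a sign but differ in size, as do those of Acox3, while those of Pex6 differ in sign.

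The rest of fatty acid uptake, activation and oxidation was examined with a list of 53 further symbols, of which 33 were measured, 15 failed the detection filter and 5 were not analysed here. In this list 2 genes rose and 3 fell, 15.2% of those measured beside 12.3% of all genes, and the median log2 change was -0.05. Acss1, which activates acetate in mitochondria, rose the most, with 12.37 and 12.16 in Mac-Gata6 KO and 10.91 and 10.86 in control (log2 change 1.38 ± 0.15, adjusted p = 0.00277). The fatty acid binding protein Fabp3 gave 8.25 and 8.49 in Mac-Gata6 KO and 7.61 and 6.90 in control (1.11 ± 0.25, adjusted p = 0.0399). Its relative Fabp5 was not well above background in Mac-Gata6 KO and at least 2.50-fold lower (adjusted p = 0.00579), and it passed the filter only through the control arrays. Acsf2, an acyl-CoA synthetase, fell by 0.90 ± 0.15 on the log2 scale, and Acad10, an acyl-CoA dehydrogenase family member, by 0.74 ± 0.18. Acad10 lost its call whichever array was omitted, Acsf2 in 3 and Fabp3 in 3 of those 4 fits, and Fabp3 and Acad10 also without a detection filter. The carnitine carrier Slc25a20, which links Cpt1a to Cpt2, gave -0.11 ± 0.15 on the log2 scale (adjusted p = 0.702), and carnitine acetyltransferase Crat 0.28 ± 0.16.

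Of 69 further peroxisome symbols, 38 were measured, 22 failed the filter and 9 were not analysed here. Of these 1 rose and 1 fell, 5.26% of those measured beside 12.3% of all genes, and the median log2 change was -0.06. Gstk1, a glutathione transferase of mitochondria and peroxisomes, gave 9.66 and 9.97 in Mac-Gata6 KO and 10.57 and 10.49 in control (log2 change -0.71 ± 0.16, adjusted p = 0.0382). Its second probe fell too, by 0.94 ± 0.15 (adjusted p = 0.0122 over all kept probes). Abcd4, a relative of Abcd3 that serves cobalamin transport in lysosomes, rose, with 8.03 and 7.87 in Mac-Gata6 KO and 7.12 and 6.96 in control (0.91 ± 0.15, adjusted p = 0.0128). Catalase Cat, which removes the hydrogen peroxide that peroxisomal oxidation makes, gave -0.32 ± 0.13 on the log2 scale without passing (adjusted p = 0.189). The sterol carrier and thiolase gene Scp2 had -0.05 ± 0.15 and the import receptor Pex7 -0.10 ± 0.17. Neither Gstk1 nor Abcd4 passed once an array was omitted, where the log2 change of Abcd4 was 0.26 to 0.84, and Gstk1 did not pass with median scaling or without a detection filter.

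Regulators and targets of the PPAR receptors were listed under 50 symbols, of which 26 were measured, 19 failed the filter and 5 were not analysed here. Here 2 rose and 1 fell, 11.5% of those measured beside 12.3% of all genes, and the median log2 change was 0.14. Pparg, the receptor of this family known for lipid storage, had 7.52 and 7.64 in Mac-Gata6 KO, against 5.08 and 4.88 in control, where it was not well above background. It was at least 3.60-fold higher (adjusted p = 0.000295), and it passed the filter only through the Mac-Gata6 KO arrays. Ppard, the third receptor, gave 10.84 and 10.56 in Mac-Gata6 KO and 10.54 and 10.58 in control, with groups that overlapped (log2 change 0.13 ± 0.15, adjusted p = 0.636). Of the 26 measured genes 30.8% had a log2 change below 0, beside 51.0% of all genes. The groups did not overlap for 11 higher and 3 lower, beside 27.6% and 29.2% of all genes, and these shares were not tested. The called targets went both ways. Angptl4, an inhibitor of lipoprotein lipase, rose by 0.70 ± 0.15 (adjusted p = 0.0372), while the acyl-CoA thioesterase Acot1 fell by 1.17 ± 0.18 (adjusted p = 0.0104). For the lipid droplet protein Plin2 it was 0.58 ± 0.17 (adjusted p = 0.0753) and for Pdk4, a kinase that restrains pyruvate oxidation, -0.58 ± 0.15 (adjusted p = 0.0547). Angptl4 did not pass once an array was omitted, nor without a detection filter, and Acot1, detected on 1 Mac-Gata6 KO array, did not pass without Mac-Gata6 KO replicate 2 (adjusted p = 0.0569) or without control replicate 1 (0.0537).

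The tricarboxylic acid cycle, which burns the acetyl-CoA that oxidation yields, was set beside these lists. Of 27 symbols 21 were measured, with 1 risen and 1 fallen, 9.52% of those measured beside 12.3% of all genes, and a median log2 change of 0.08. The pair were malic enzymes, which lead out of the cycle. Me2, of mitochondria, gave 10.58 and 10.36 in Mac-Gata6 KO and 9.30 and 9.57 in control (log2 change 1.03 ± 0.16, adjusted p = 0.0122). Me1, of the cytosol, was not well above background in Mac-Gata6 KO and at least 1.44-fold lower (adjusted p = 0.0220), and it passed the filter only through the control arrays. Me1 did not pass without either Mac-Gata6 KO array, and Me2 without Mac-Gata6 KO replicate 1 or control replicate 1. No other gene of the list passed. The nearest were Dlat of pyruvate dehydrogenase at -0.60 ± 0.15 (adjusted p = 0.0516), Suclg2 at -0.57 ± 0.14 (0.0534) and Dlst at 0.54 ± 0.14 (0.0576). These lists share the same 4 arrays and a few genes, such as Slc25a20, so their medians are set side by side without a test.

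**Figure D4:**
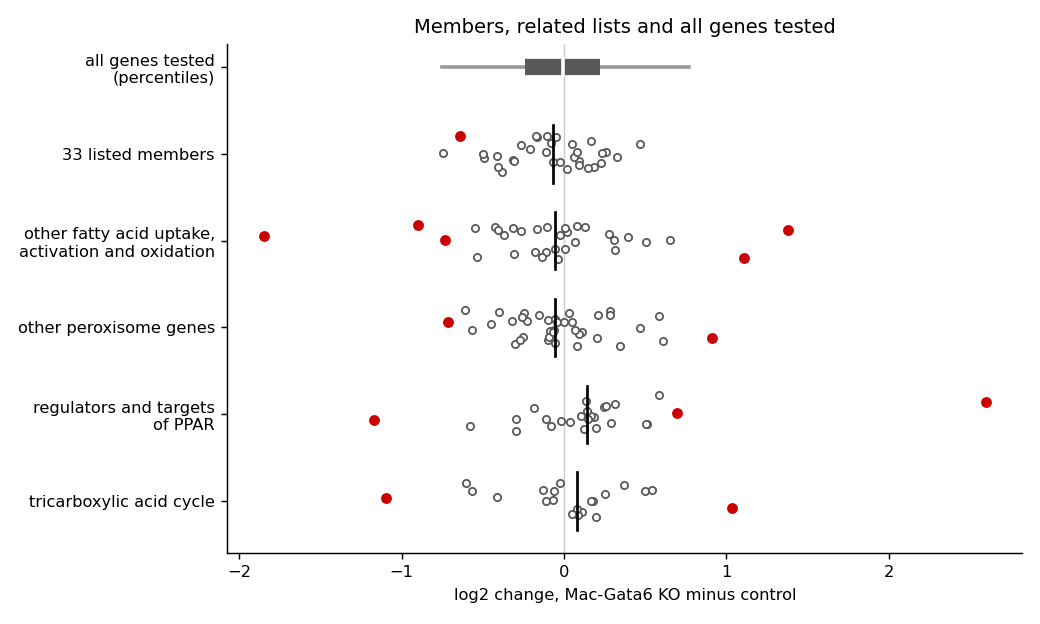
Log2 change, Mac-Gata6 KO minus control (horizontal axis), of the 33 measured members, of 4 related gene lists and of all genes tested. Each point is a gene, red when its adjusted p is under 0.05, black ticks are list medians, and the grey bars of the top row span the 5th to 95th (thin) and 25th to 75th (thick) percentiles of all 11628 genes; every member lies within -0.74 to 0.47. Genes not detected in 1 group (Cpt1a, Pecr, Fabp5, Pparg, Me1) are drawn at their fitted value, which is no bound.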

How the data were processed

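Sorted peritoneal macrophages of 2 Mac-Gata6 KO and 2 control samples were measured on Illumina bead arrays. Per the file headers, the deposited table holds raw intensity and a detection p-value per probe on every array. The authors also deposited a second table of processed intensity values on a linear scale whose columns share 1 distribution. No source used here names the software behind them.

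Intensities of 45281 probes were background-corrected and quantile normalized by neqc (limma 3.58.1, R 4.3.3, offset 16), which gives log2 values from the deposited intensities. Probes with a detection p under 0.05 on at least 2 arrays were kept (16713). Of all probes 34885 had a single symbol in the platform annotation, 18 had several and 10378 had none. Each gene was represented by its kept probe with the highest mean, and probes without a symbol stood for themselves, 11628 in all. Median raw intensity was 136.4 to 146.2 per array, 35.5% to 36.4% of probes were detected, and precision is limited by having 2 arrays a group. The difference of Mac-Gata6 KO from control was fitted with lmFit and eBayes over all genes at once, two-sided, with Benjamini-Hochberg adjustment. The fit was tested on simulated data. A value after ± is the standard error from limma.

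Members and lists were chosen with earlier results of these data known, so no p over a list is given. Every member is named. Array values are given for those past the threshold and for the smallest p in each role, and in the related lists for called genes, at most 6 each way. Further genes were chosen after seeing values. Other settings tried were the background correction, offset, scaling, authors' values, detection filter, probes per gene, variance model, replicate block and each array left out.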

Additional observations from a re-analysis of the deposited data

How the results depend on the processing

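With all 4 arrays and any planned setting 0 to 3 members passed, 0% to 10.3% of those measured, beside 3.51% to 19.3% of all genes in the same settings. The median log2 change of the members stayed between -0.10 and -0.01, and no member past the threshold reversed. Members below 0 numbered 17 of 33 with median scaling, against 19 of 33 in the main fit. Of all genes 45.4% were below 0 with median scaling, against 51.0% in the main fit. With the stricter detection filter 17 of 29 members were below 0, beside 50.9% of all genes. Called genes numbered 1098 higher and 1142 lower on uncorrected intensities, 1100 and 1142 from the authors' processed table, and 1089 and 1134 with a trend and robust variance. Hsd17b4 was then the 1 member higher, as with an offset of 50 and with the stricter detection filter. Members lower numbered 2 with the stricter filter (Abcd3 and Decr1), 0 with the mean of kept probes, and 1 with median scaling, where Cpt1a passed and Abcd3 did not. In the first 3 of those settings 5 further oxidation genes and 3 further peroxisome genes were lower, PPAR regulators and targets had 4 higher and 2 lower, and cycle genes 3 higher and 4 lower. With an offset of 50 PPAR genes had 4 higher and 2 lower, and cycle genes 3 and 3. With the stricter filter 2 PPAR genes were lower and cycle genes had 3 higher and 2 lower. Without a filter 1 further oxidation gene and 1 PPAR gene were higher and 0 further peroxisome genes lower. With the mean of kept probes 2 further peroxisome genes were higher and 2 cycle genes lower, and with median scaling 0 further peroxisome genes were lower. Of all genes 19.1% to 19.3% passed in those first 3 settings, 16.1% with an offset of 50 and 17.6% with the stricter filter. The share was 3.51% without a filter, 12.2% with the mean of kept probes and 13.2% with median scaling, against 12.3% in the main fit. The cause of these differences was not tested.

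With 1 array left out 249 to 390 genes were higher and 238 to 416 lower, with fewer degrees of freedom, and the single array then left in 1 group was taken to vary as the other group did. Members lower were then 0 to 0. Further oxidation genes had 1 to 3 higher and 0 to 2 lower, further peroxisome genes 0 to 0 either way with a median log2 change from -0.12 to 0.030, PPAR genes 0 to 1 either way, and cycle genes 0 to 1 higher and 0 to 0 lower. With 1 control array left out, whichever it was, Cpt1a and Pecr had no kept probe and gave no value, nor did Hadh without control replicate 1 or Mac-Gata6 KO replicate 2.

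The labels give no pairing beyond a replicate number. Arrays of the same number deviated from their group means with a correlation of -0.13 over genes (genes are not independent replicates). With 2 arrays a group this value cannot decide whether arrays of the same number were paired. The fit with a replicate block called 597 genes higher and 560 lower, 0 members, 0 further peroxisome genes were lower and 1 PPAR gene higher. Crossing the pairs, an alternative added after seeing the data, gave 730 and 745 genes and 2 members lower. Signal over background limits Cpt1a and Pecr to a bound and leaves Ppara and Ehhadh unmeasured. No slide is named, so no block for it was run.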
